A study of Homo sapiens with 4 samples.

Results

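The 10 genes described here encode the enzymes that write, copy and remove cytosine methylation and 3 proteins of the methyl-CpG-binding domain family. They were found by symbol in the count table, where each has 1 row among 35606, and all 10 had enough counts to be among the 14750 genes tested. The samples are K562 cells, an established human line from chronic myelogenous leukaemia whose cells resemble erythroid precursors, labelled either as expressing JAZF1-SUZ12 or as mock, with 2 libraries in each group. JAZF1-SUZ12 joins JAZF1 to SUZ12, a core subunit of Polycomb repressive complex 2, and is known from endometrial stromal sarcoma. How the fusion was introduced, how long it was expressed and whether the libraries of a group came from separate cultures are not given in the sources used here, so p-values measure only the spread between these libraries.

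DNA methylation in mammals sits mostly on CpG dinucleotides. DNMT3A and DNMT3B place it on unmethylated sites, and after replication UHRF1 recognises hemimethylated sites and brings DNMT1 to copy the mark onto the new strand. TET1, TET2 and TET3 oxidise methylcytosine, which leads to its removal. MBD1 and MBD2 bind methylated CpG, and MBD2 and MBD3 are alternative subunits of the NuRD remodelling and deacetylase complex. DNMT3A and TET2 are recurrently mutated in myeloid malignancy.

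The libraries held between 17260936 and 24423028 counts. JAZF1 counts were 574 and 731 in the libraries labelled JAZF1-SUZ12 and 12 and 27 in mock, and SUZ12 rose 2.01-fold (edgeR, adjusted p = 1.15e-09), in the direction of the labels. The labels give uterus as the source, but 8 of 8 erythroid markers were counted in every library, with a summed level of 11300 and 11200 CPM (counts per 1000000 of the library total) in JAZF1-SUZ12 libraries and 9800 and 9510 in mock. The erythroid markers HBZ, an embryonic globin, and ALAS2, a haem synthesis enzyme, were at 1050 and 1010 against 545 and 573 CPM and at 89.2 and 94.8 against 56.0 and 57.7 CPM. The summed level of 5 endometrial stromal markers was 8.29 and 7.17 CPM with the fusion and 6.16 and 4.93 in mock. Most of this was PGR, the progesterone receptor, with 117 and 147 counts with the fusion and 99 and 93 in mock. DCN and ESR1 had at most 20 and 14 counts, COL3A1 at most 3, and LUM was at 0 counts in every library.

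Of the 10 genes, 6 changed, 3 in each direction. DNMT3A, TET1 and TET3 were higher in JAZF1-SUZ12 libraries, and DNMT1, DNMT3B and UHRF1 were lower. By the same test 24.7% of all genes were called, 13.3% higher and 11.4% lower. The changes were small, from a 1.46-fold rise of DNMT3A to a fall of UHRF1 to 0.785 of its mock level. The median log2 fold change of the 10 genes was -0.011, beside 0.0032 over all genes tested, and it moved to 0.0125 if mock replicate 1 was left out and to -0.0453 if mock replicate 2 was. Without JAZF1-SUZ12 replicate 2 the number called was 4, since DNMT1 and TET1 then missed the threshold.

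The largest rise and the largest fall were in DNMT3A and UHRF1, and the stretch before the most upstream RefSeq start of each is shown for these. Capitals mark matches on either strand to 3 motifs that do not overlap one another here: CCAAT of the NFY factor, the SP and KLF core GGGCGG, and the E2F form TTTNNCGC. The UHRF1 stretch stops at 179 bases, where annotated exons begin. The first line is chr2:25342591-25342840 on the minus strand and the second chr19:4909251-4909429 on the plus strand, both GRCh38, written 5′ to 3′.
DNMT3A: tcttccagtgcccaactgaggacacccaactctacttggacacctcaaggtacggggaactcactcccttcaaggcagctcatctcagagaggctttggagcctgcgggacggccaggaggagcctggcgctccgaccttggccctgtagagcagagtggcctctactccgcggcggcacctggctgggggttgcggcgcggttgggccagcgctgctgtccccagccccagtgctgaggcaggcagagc
UHRF1: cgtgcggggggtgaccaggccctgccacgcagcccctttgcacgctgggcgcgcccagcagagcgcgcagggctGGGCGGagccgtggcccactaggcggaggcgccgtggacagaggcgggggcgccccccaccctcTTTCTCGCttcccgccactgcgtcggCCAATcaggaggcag

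The 250 bases before the DNMT3A start held none of the 3 motifs and 12 CpG dinucleotides, against a median of 10 over 27305 genes. Those before the UHRF1 start held 28 CpG dinucleotides, 2 matches to TTTNNCGC, 2 to GGGCGG and 1 to CCAAT, of which 1 of each lies in the printed part. Such windows hold at least 1 match in 5.92% of genes for TTTNNCGC, 42.2% for GGGCGG and 33.0% for CCAAT. A match is a description of the sequence only.

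DNMT1, the maintenance methyltransferase (ENSG00000130816; chromosome 19, 10133345 to 10231286, minus strand), had the most counts of the 10 genes. It was at 321 and 334 CPM in mock and at 306 and 284 CPM in JAZF1-SUZ12 libraries, scaled by TMM here and below. Both JAZF1-SUZ12 libraries lay below both mock libraries, by a margin similar to the distance between libraries of a group. Its log2 fold change of -0.15 had a standard error of 0.048, and DNMT1 was called lower (edgeR, adjusted p = 0.0302). It did not pass without JAZF1-SUZ12 replicate 2 (-0.097, adjusted p = 0.216) or without mock replicate 2 (-0.12, adjusted p = 0.186), and over all alternatives its adjusted p ranged from 0.000774 to 0.216.

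UHRF1, which guides DNMT1 to newly replicated DNA (ENSG00000276043; chromosome 19, 4903080 to 4962154, plus strand), was at 121 and 120 CPM in mock and at 95.8 and 93.6 CPM in JAZF1-SUZ12 libraries. The groups were well apart and the libraries within each differed little. Its level fell to 0.785-fold, with a 95% interval from 0.726 to 0.849 (edgeR, adjusted p = 0.000179). The libraries held 0.313 and 0.330 UHRF1 counts per DNMT1 count with the fusion, below the 0.377 and 0.360 of mock.

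DNMT3B, a de novo methyltransferase (ENSG00000088305; chromosome 20, 32762385 to 32809356, plus strand), was at 178 and 182 CPM in mock and at 151 and 156 CPM in JAZF1-SUZ12 libraries. It fell to 0.854-fold, with a 95% interval from 0.795 to 0.917 (edgeR, adjusted p = 0.00267).

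DNMT3A, the other de novo methyltransferase (ENSG00000119772; chromosome 2, 25227855 to 25342590, minus strand), moved the opposite way. It was at 21.8 and 21.7 CPM in mock and at 31.5 and 31.9 CPM in JAZF1-SUZ12 libraries. The libraries of a group were nearly equal and the groups did not overlap. The rise was 1.46-fold, with a 95% interval from 1.29 to 1.65 (edgeR, adjusted p = 0.000166). The balance of counts between the genes of the 2 de novo enzymes differed. With the fusion there were 0.208 and 0.205 DNMT3A counts per DNMT3B count, against 0.122 and 0.120 in mock. This ratio needs no scaling between libraries, and its mean was 1.71 times that of mock. It rests on the deposited counts. In the authors' deposited table, described below, the log2 fold change was 0.220 for DNMT3A (standard error 0.179) and -0.263 for DNMT3B. DNMT3A was not called there. With 2 libraries against 2 an exact permutation test cannot give a two-sided p below 0.333. That was the value for 6 of 7 such ratios compared, all 6 without overlap between the groups. These ratios share genes, and the share without overlap over other gene pairs was not computed, so the count is a description only. Groups without overlap were also seen for MBD1 and TET2, which were not called (edgeR, adjusted p = 0.274 and 0.896). Of the RNA of the 2 de novo enzymes, that of DNMT3B was the more abundant in every library, also per kilobase of transcript.

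**Figure D1:**
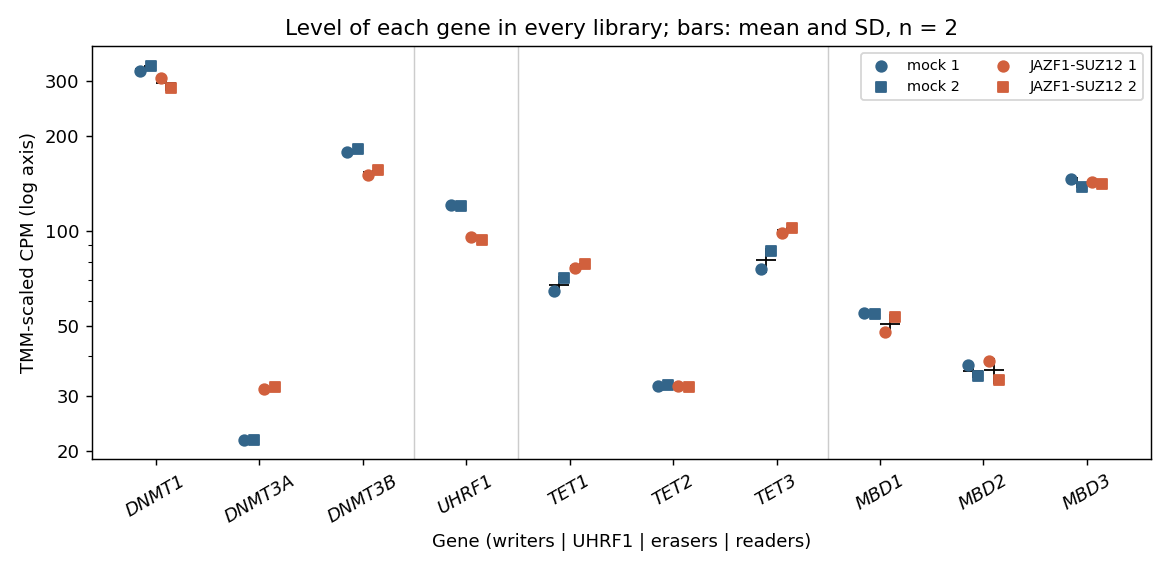
Points give the TMM-scaled CPM (log axis) of each of the 10 genes in each of the 4 libraries, and black bars give the mean and SD of a group (n = 2). DNMT3A, TET1 and TET3 lie higher and DNMT1, DNMT3B and UHRF1 lower with the fusion, whereas the groups of MBD2 and MBD3 overlap.

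Among the erasers, TET3 (ENSG00000187605; chromosome 2, 73986404 to 74108176, plus strand) was at 75.8 and 86.4 CPM in mock and at 98.8 and 102 CPM in JAZF1-SUZ12 libraries. Mock replicate 1 was the lowest, and both JAZF1-SUZ12 libraries lay above both mock libraries. The rise was 1.24-fold, with a 95% interval from 1.13 to 1.36 (edgeR, adjusted p = 0.00229). TET3 passed in all 11 alternatives, with a log2 fold change between 0.22, without mock replicate 1, and 0.41, without mock replicate 2.

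TET1 (ENSG00000138336; chromosome 10, 68560656 to 68694482, plus strand) was at 64.3 and 70.8 CPM in mock and at 76.1 and 78.6 CPM in JAZF1-SUZ12 libraries. It rose 1.15-fold, with a 95% interval from 1.04 to 1.26 (edgeR, adjusted p = 0.0320). The call was not kept with DESeq2 (adjusted p = 0.116), without JAZF1-SUZ12 replicate 2 (0.126) or without mock replicate 1 (0.248), and the lowest adjusted p over the alternatives was 0.0133.

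TET2 (ENSG00000168769; chromosome 4, 105145875 to 105279816, plus strand) was at 32.3 and 32.5 CPM in mock and at 32.2 and 31.9 CPM in JAZF1-SUZ12 libraries. It was not called (edgeR, adjusted p = 0.896), and the 95% interval of its fold change ran from 0.885 to 1.10. That interval does not reach the 1.13-fold lower limit of TET3 but does reach the 1.04-fold lower limit of TET1. Within libraries there were 0.424 and 0.405 TET2 counts per TET1 count with the fusion and 0.502 and 0.459 in mock. The counts of the 3 TET genes together, per count of DNMT1 and DNMT3B, were 0.453 and 0.484 with the fusion and 0.346 and 0.368 in mock.

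**Figure D2:**
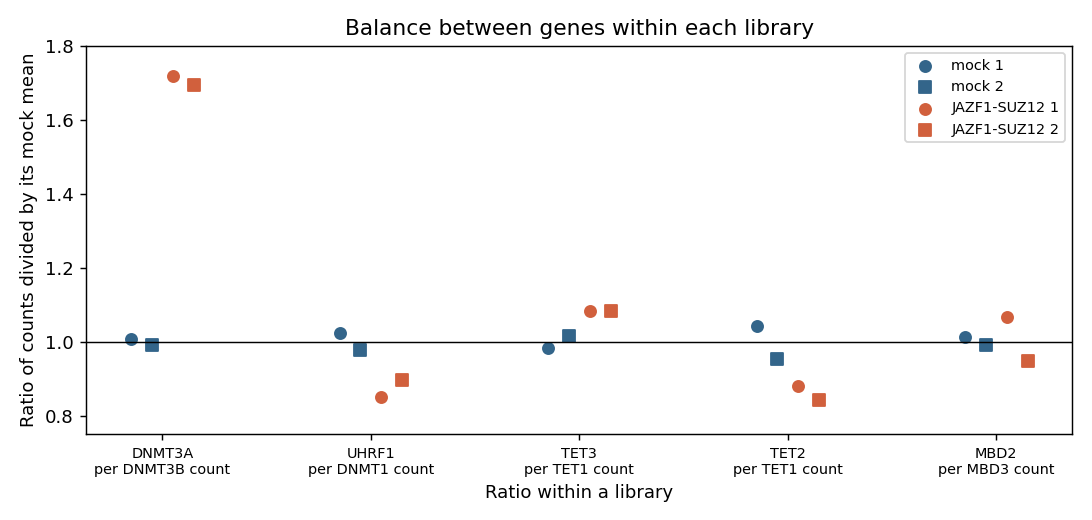
Each point is a ratio of counts between 2 genes within 1 library, divided by the mean of that ratio in mock. DNMT3A per DNMT3B count stands near 1.71 in both JAZF1-SUZ12 libraries, UHRF1 per DNMT1 and TET2 per TET1 stand below mock, and MBD2 per MBD3 overlaps mock.

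None of the 3 readers was called. MBD1 (ENSG00000141644; chromosome 18, 50266882 to 50281774, minus strand) was at 54.9 and 54.7 CPM in mock and at 47.9 and 53.4 CPM in JAZF1-SUZ12 libraries, with JAZF1-SUZ12 replicate 1 the lowest. Its fold change was 0.927, with a 95% interval from 0.839 to 1.03 (edgeR, adjusted p = 0.274). MBD2 (ENSG00000134046; chromosome 18, 54151601 to 54224788, minus strand) was at 37.5 and 34.7 CPM in mock and at 38.6 and 33.8 CPM with the fusion, so both mock libraries lay between those of the fusion. MBD3 (ENSG00000071655; chromosome 19, 1573596 to 1592801, minus strand) was at 146 and 138 CPM in mock and at 143 and 141 CPM with the fusion. The 95% intervals of the fold change were 0.887 to 1.13 for MBD2 and 0.924 to 1.08 for MBD3 (edgeR, adjusted p = 0.994 and 0.964). Exons of MBD3 overlap the gene AC005943.1 on the same strand, which had between 489 and 587 counts, and those of DNMT1 overlap S1PR2, which had at most 101. Reads in those shared stretches could count for either gene.

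To compare levels between genes, CPM were divided by the length in kilobases of the longest transcript in GENCODE 29; which transcript is used in these cells is not known from gene counts. In mock the order of these levels per kilobase was DNMT1 at 60.5, DNMT3B at 41.5, UHRF1 at 28, MBD3 at 25.8, MBD1 at 11.2, TET1 at 7.27, TET3 at 7.12, MBD2 at 6.95, TET2 at 3.19 and DNMT3A at 2.29. TET1, TET3 and MBD2 overlapped between libraries and are not ordered among themselves. With the fusion, UHRF1 at 22.0 lay below MBD3 at 25.7, and DNMT3A at 3.34 lay above TET2 at 3.15. For each of these reversals both libraries of a group gave the same order. DNMT1 and DNMT3B were the most abundant per kilobase in both groups, and DNMT3A and TET2 the least.

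The authors' deposited table lists all 10 genes and calls 3 of them, UHRF1 and DNMT3B lower and TET3 higher, at a rate of 8.5% over the genes with an adjusted p-value there. There, in the authors' deposited table, log2 fold changes were -0.295 for UHRF1, -0.263 for DNMT3B and 0.288 for TET3, beside -0.35, -0.23 and 0.31 from the counts. Adjusted p-values in the authors' deposited table were 0.0158 for UHRF1, 0.00958 for DNMT3B and 0.0435 for TET3. The value of TET3 lay close to the threshold of 0.05. DNMT1 and TET1 had the same sign in both and were not called in the authors' deposited table (adjusted p = 0.350 and 0.376).

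DNMT3A and MBD2 differed more between the sources. DNMT3A was 0.220 with a standard error of 0.179 in the authors' deposited table (adjusted p = 0.593), beside 0.55 from the counts. MBD2 was 0.349 with a standard error of 0.157 in the authors' deposited table (adjusted p = 0.175), beside -0.0012 from the counts. Over the 11826 genes that averaged 50 counts or more, the median absolute difference between the authors' deposited table and the fit was 0.0433, and 4.54% differed by at least as much as DNMT3A and 4% by at least as much as MBD2. The steps between the counts and the authors' deposited table are not given in the sources used here, and the cause of these differences was not tested. DNMT3A has 6 start sites in the RefSeq table, from 25252131 to 25342590 on chromosome 2, and which of its transcripts the gene counts cover is not known from the sources used here.

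**Figure D3:**
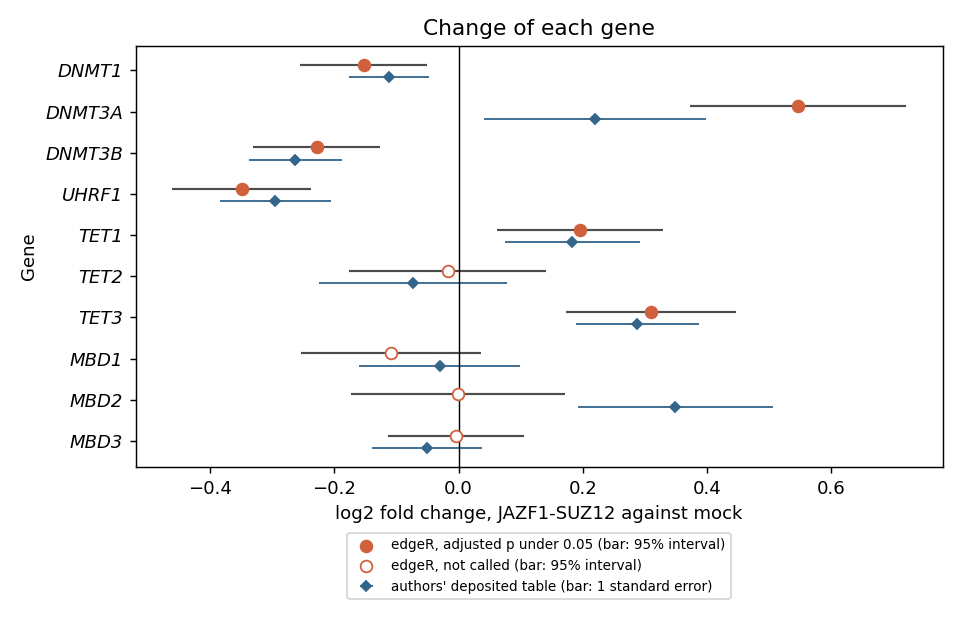
Circles give the log2 fold change of each gene from edgeR with its 95% interval, filled where the adjusted p was under 0.05, and diamonds give the value in the authors' deposited table with 1 standard error. The 2 sources lie far apart for DNMT3A (0.55 and 0.220) and MBD2 (-0.0012 and 0.349), and the 6 filled circles lie on both sides of 0.

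The pattern nearest to that of DNMT3A was sought across the 4 libraries. Among 11624 genes, FNDC10, OBSL1 and FBXO44 were the closest, at Euclidean distances of 0.0245, 0.0254 and 0.0259 in centred log2 CPM. OBSL1 was at 74.6 and 72.7 CPM in mock and 107 in both JAZF1-SUZ12 libraries, a 1.46-fold rise. With 4 libraries this likeness means little more than a rise of the same size with little spread.

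Genes that act beside these 10 were described as 5 lists. Of 13 NuRD subunits, the complex that holds MBD2 or MBD3, 4 fell and none rose, or 30.8% of the list. Of all genes tested, 24.7% were called in either direction and 11.4% were called lower. The median log2 fold change of the list was -0.11. CHD4, the remodelling ATPase of the complex, went from 743 and 751 CPM in mock to 652 and 620 CPM with the fusion (log2 fold change -0.23; edgeR, adjusted p = 0.000753). GATAD2A and MTA2, scaffold subunits, changed by -0.28 and -0.23 on the log2 scale (edgeR, adjusted p = 0.00117 and 0.00173). The authors' deposited table gave -0.0667 for GATAD2A with an adjusted p of 0.846, and called CHD4 and MTA2 lower. The fourth was HDAC2 (log2 fold change -0.17; edgeR, adjusted p = 0.0151).

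Of 21 other factors of DNA methylation, 18 were tested, 1 rose and 1 fell. This was 11.1% of the list, below the 24.7% of all genes tested. CDCA7, which with HELLS supports methylation of heterochromatin, went from 101 and 96.7 CPM in mock to 83.9 and 87.2 CPM with the fusion (edgeR, adjusted p = 0.0143). It did not pass without mock replicate 1. GADD45B, a stress response gene linked to demethylation, was at 1.38 and 1.37 CPM in mock and at 3.25 and 2.66 CPM with the fusion (edgeR, adjusted p = 0.0221), and passed in only 1 of the 4 fits that left out a library, the one without JAZF1-SUZ12 replicate 2. Neither was called in the authors' deposited table (adjusted p = 0.299 for CDCA7 and 0.389 for GADD45B). MBD4, MBD5 and MBD6, which share the domain of the 3 readers, were not called (edgeR, adjusted p = 0.225, 0.0797 and 0.327).

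Of 12 genes of methyl donor and cofactor metabolism, 3 fell and 1 rose, or 33.3% of the list beside 24.7% of all genes tested. The log2 fold change was above 0 for 6 and below 0 for 6, with a median of 0.032, which was -0.0057 without JAZF1-SUZ12 replicate 1. MTHFD1, a folate enzyme, went from 160 and 164 CPM in mock to 129 and 123 CPM with the fusion (log2 fold change -0.36; edgeR, adjusted p = 9.12e-05). MAT2A, which makes S-adenosylmethionine, the methyl donor of the DNMT enzymes, changed by -0.23, and SLC19A1, a folate carrier, by -0.31 (edgeR, adjusted p = 0.00187 and 0.00315). IDH2, which can supply the oxoglutarate that TET enzymes consume, rose by 0.17 (edgeR, adjusted p = 0.0277). Without mock replicate 2 the list had 2 calls, as SLC19A1 and IDH2 missed the threshold, and IDH2 also missed it with DESeq2. In the authors' deposited table MTHFD1, MAT2A and SLC19A1 were called lower and IDH2 was not called (adjusted p = 0.283).

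The list of 20 germline genes, which in somatic cells are commonly held silent by promoter methylation, had 11 genes with enough counts. None rose and 2 fell, or 18.2% of those tested. Beside this, 24.7% of all genes were called in either direction and 11.4% were called lower. With 2 calls the share is a description only. TEX15 went from 107 and 98.3 CPM in mock to 87.1 and 81.6 CPM with the fusion (edgeR, adjusted p = 0.00269), and MAGEA3 from 138 and 146 to 128 and 120 CPM (edgeR, adjusted p = 0.0168). MAGEA3 has near-identical copies, so its count is uncertain, and it missed the threshold without JAZF1-SUZ12 replicate 2 or mock replicate 2. TEX15 and MAGEA3 were not called in the authors' deposited table (adjusted p = 0.0675 and 0.261). The median of the list was 0.20 while both calls were lower, and it was -0.065 without JAZF1-SUZ12 replicate 1. DAZL and DDX4 had 0 counts in every library. No methylation was measured in these samples.

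DNMT1 and UHRF1 act at replication, so 18 replication genes were set beside them. Of these, 9 fell and none rose, or 50% of the list beside 11.4% of all genes called lower, and the median log2 fold change was -0.14, which was -0.094 without JAZF1-SUZ12 replicate 2. The summed level of the list was 4085 and 4081 CPM in mock and 3808 and 3648 CPM with the fusion. FEN1, a flap endonuclease, went from 235 and 237 CPM in mock to 199 and 194 CPM (log2 fold change -0.27; edgeR, adjusted p = 0.000533). RRM2, a ribonucleotide reductase subunit, and MCM4, a helicase subunit, changed by -0.23 and -0.20 (edgeR, adjusted p = 0.00164 and 0.00275). The authors' deposited table called FEN1 and RRM2 lower and did not call MCM4 (adjusted p = 0.0509). The number of these genes called was 4 without JAZF1-SUZ12 replicate 2, 4 without mock replicate 1 and 5 without mock replicate 2. The summed erythroid marker level given above was higher with the fusion in the same libraries. The part of either shift in the lower DNMT1, UHRF1 and DNMT3B levels was not tested, and a smaller share of cells in S phase and less RNA per cell cannot be told apart in bulk samples.

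**Figure D4:**
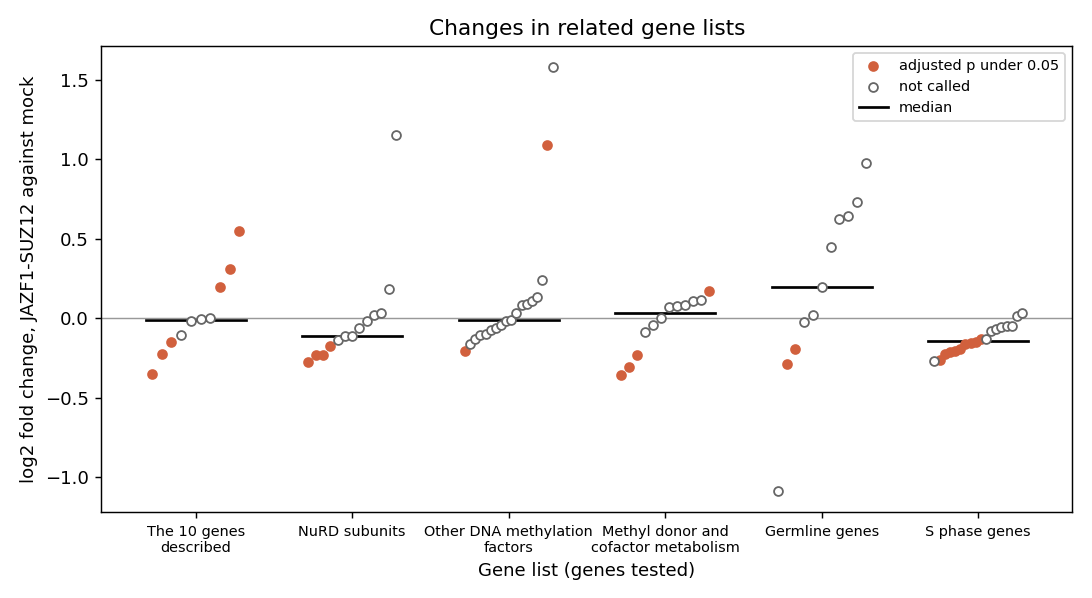
Each point is the log2 fold change of a tested gene, ordered within its list, filled where the edgeR adjusted p was under 0.05, and the black line is the median of the list. The S phase genes lie mostly below 0 with a median of -0.14 and the 10 genes described lie on both sides of 0.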

How the data were processed

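Poly(A)-selected, directional libraries of 4 K562 samples were analysed, 2 labelled JAZF1-SUZ12 and 2 labelled mock. The authors deposited estimated counts per gene, which are not normalized; from 29.9% to 33.6% of them, by library, were not whole (tolerance 1e-06), and all were rounded before testing because the design had assumed whole counts. The submitters' processing notes name fastp 0.20.1, FastQC 0.11.7, MultiQC 1.5, kallisto 0.46.2, DESeq2 1.30.1 and hg38, without roles; the annotation, and whether strand was used in counting, are not given in the sources used here. The authors also deposited a comparison table of 21251 genes with a mean normalized signal, a log2 fold change, its standard error and p-values per gene, per the file headers; 5356 genes have no adjusted p-value in it and stayed missing.

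Genes were kept with filterByExpr, scaled with TMM and tested across all 14750 kept genes with the quasi-likelihood test of edgeR 4.0.16 (R 4.3.3), two-sided, with Benjamini-Hochberg adjustment and a threshold of 0.05. Values in CPM (counts per 1000000) use the TMM-scaled library sizes. Standard errors are the absolute log2 fold change divided by the square root of F, and 95% intervals use the moderated degrees of freedom. In simulated counts for this comparison, 93 of 100 genes changed 2-fold and 48 of 100 changed 1.2-fold were called among 14464 tested, with 14 false calls. No other genes were changed in the simulation, whereas 24.7% of all genes tested were called in the data. The shares recovered therefore need not hold for the data. Alternatives were DESeq2 1.42.0, limma-voom (limma 3.58.1), other scalings, other filters, a replicate block, a threshold of 0.01 and leaving out each library.

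The 10 genes and the 5 gene lists were chosen with earlier results of these data known, so no list was tested as a set. Named from the lists were the called genes with the 3 smallest p-values per direction, JAZF1 and SUZ12, and for the gene with the smallest p-value the 3 genes with a mean of at least 50 counts nearest to it in centred log2 CPM. HDAC2, MBD4, MBD5, MBD6, DAZL and DDX4, and the cell type markers given, fall outside that rule and were chosen after their values were seen. Positions and transcript lengths come from GENCODE 29 (GRCh38), which held 35410 of 35606 gene IDs. Promoter sequence comes from RefSeq (GRCh38.p14), which matched all 10 genes.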

Additional observations from a re-analysis of the deposited data

How the results depend on the processing

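In all 11 alternative fits DNMT3A, DNMT3B, UHRF1 and TET3 kept their direction and their call, and DNMT1 and TET1 kept their direction; the number of the 10 genes called ranged from 4 to 6, and was 4 at a threshold of 0.01. The median log2 fold change of the 10 genes, -0.011, was 0.0115 with library totals only and 0.0133 for genes averaging 50 counts or more, and ranged from -0.0453 to 0.0125 when 1 library was left out. All 11 alternative fits start from the same rounded counts. In the authors' deposited table DNMT3A was not called (adjusted p = 0.593). Genes near 0 changed sign without being called. TET2 was 0.0052 with library totals only and 0.0069 for genes averaging 50 counts or more. MBD2 was 0.0209 and 0.0228 in those fits, 0.00042 with DESeq2 and 0.0025 with the replicate block, and ranged from -0.0937 to 0.0991 when 1 library was left out. MBD3 was 0.0177 and 0.0196 in the first 2 fits and ranged from -0.0395 to 0.0423 when 1 library was left out. Leaving out a library leaves 1 sample in a group, which is assumed to vary like the others. With the replicate block 6 of the 10 genes were called, the same number as without it. Deviations of same-numbered libraries were nearly uncorrelated (Pearson r = 0.0346 over 11826 genes). This cannot show whether they share a culture or a batch, which is not given in the sources used here. Across the genes tested, the count of 3643 calls was 2407 with DESeq2 and 4061 with the block; the cause was not tested. The 9 S phase genes called became 4 at a threshold of 0.01, the 2 other DNA methylation factors became 0 (1 with DESeq2), and the 2 germline genes 1. The germline median was -0.00156 for genes averaging 50 counts or more. The 2 libraries of a group limit every SD, and in the simulation genes changed 1.2-fold were called only in part.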
